A study of Mus musculus with 4 samples.

Results

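Collagens are the main structural proteins of the extracellular matrix. Each molecule is built from α chains whose sequence repeats the triplet Gly-X-Y, which lets the chains wind into a helix of strands. Fibrillar collagens form the cross-striated fibrils of connective tissue. Type IV collagen forms the sheet of basement membranes, which in the lung lie under the alveolar epithelium, and type VI forms beaded microfilaments near cells. Fibril-associated collagens with interrupted helices (FACIT) coat the surface of fibrils. To describe which of these chains lung epithelial cells transcribe, every gene whose symbol has the form Col, number, a, number was taken from the deposited RNA-seq table of MLE12 cells. This gave 33 of the 18018 genes listed, that is 10 fibrillar chains, 6 basement membrane chains (type IV), 3 type VI chains, 6 FACIT chains and 8 chains of other classes.

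MLE12 cells are an established line of mouse lung epithelium that resembles alveolar type II cells. The series holds 2 libraries of control MLE12 cells and 2 libraries of MLE12 cells in which lamin B1, a protein of the nuclear lamina, was silenced (Lmnb1 KD). The study silenced lamin B1 in this line with a lentiviral shRNA, and all cells of both groups grew in medium with puromycin, which selects transduced cells. The labels do not say whether the replicates were separate cultures. For each gene the table gives 1 mean of normalized read counts over all 4 libraries, next to the fold changes and p-values of the authors' own comparison, which were not used. The difference between lamin B1 KD and control cells is therefore not analysed here, the pooled mean cannot show the silencing of Lmnb1, and every level below averages both groups. No level has an SD. Levels of different genes were compared per length: the mean was divided by the length of the longest coding transcript and given in parts of the sum over all genes (ppm), here named the length-scaled level.

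The table held mean levels that summed to 22404230 normalized reads per library, with a median of 277 per gene. Because the mean of 4 counts divided by size factors takes only certain values, the 4 size factors were estimated from its digits and lay between 0.934 and 1.07. The libraries thus differed by at most 1.15-fold in depth. The lung epithelial label was set against marker genes. Sftpb and Sftpc, surfactant proteins of alveolar type II cells, had length-scaled levels of 463 and 126 ppm, and Nkx2-1, a lung epithelial transcription factor, 106 ppm. Abca3 (43.8 ppm) and Etv5 (40.9) were also above the median gene, whereas Napsa and Sftpa1 were at 0.800 and 0.0613 ppm. Sftpd, Lamp3 and Slc34a2 were not listed. Of the 10 type II markers chosen, 7 were thus listed and 5 stood above the median gene. Of the 8 epithelial markers 4 did, namely Krt19 (2240 ppm), Krt8 (542), Cldn3 (61.0) and Cdh1 (36.8). Epcam (4.23 ppm), Krt18 (0.998), Cldn7 (0.210) and Cldn4 (0.203) did not. Of the 8 fibroblast markers chosen, 6 were listed. Among these Vim (1657 ppm), Dcn (776) and Fn1 (110) were high, while Pdgfra (0.593), Pdgfrb (0.278) and Lum (0.190) were below 1 ppm. Of the endothelial, immune and chondrocyte markers listed, 0 stood above the median gene. The part of these other markers in the collagen levels was not tested.

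The type IV genes lie in pairs with close starts, so sequences before the starts are shown first. The 6 type IV genes lie in head-to-head pairs in GRCm38, which is the mm10 assembly. Col4a1 (chr8:11198423-11312826, minus strand, 52 exons) and Col4a2 (chr8:11312805-11449287, plus strand, 48 exons) overlap by 22 bases at their 5′ ends. The bases before each start thus lie in the first exon of the other gene, and no window is printed for this pair. The starts of Col4a3 (chr1:82586921-82722059) and Col4a4 (chr1:82448423-82586849) lie 72 bases apart, with 71 bases between the genes. Those of Col4a5 (chrX:141475385-141689234) and Col4a6 (chrX:141165403-141474076) lie 1309 bases apart. Col6a1 (chr10:76708792-76726168) and Col6a2 (chr10:76595762-76623630) are neighbours on the same strand, 85.2 kb apart, while Col6a3 (chr1:90765923-90843971) is on another chromosome. The windows below end at the annotated 5′ end of the gene, run 5′ to 3′ on its strand and hold no annotated exon. They were read from RefSeq promoters (GRCm38.p6) and chosen, after the levels were seen, to set abundant chains beside their rare partners. Capitals mark a GC box (GGGCGG) or a CCAAT box, on either strand. The first window is the whole interval between Col4a4 and Col4a3 (chr1:82586850-82586920), read on the strand of Col4a4.
Col4a4: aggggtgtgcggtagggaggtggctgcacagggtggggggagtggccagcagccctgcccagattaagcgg
The next windows precede Col4a5 (chrX:141475185-141475384) and Col4a6 (chrX:141474077-141474276).
Col4a5: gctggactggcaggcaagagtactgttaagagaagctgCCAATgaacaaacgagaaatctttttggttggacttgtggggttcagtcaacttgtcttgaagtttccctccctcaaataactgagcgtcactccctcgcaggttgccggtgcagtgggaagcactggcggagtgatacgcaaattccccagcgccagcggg
Col4a6: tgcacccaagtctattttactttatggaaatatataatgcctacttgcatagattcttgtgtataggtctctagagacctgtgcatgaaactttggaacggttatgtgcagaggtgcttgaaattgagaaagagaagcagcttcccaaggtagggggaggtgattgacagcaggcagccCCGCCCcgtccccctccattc
The last windows precede Col6a1 (chr10:76726169-76726294), Col6a2 (chr10:76623631-76623830) and Col6a3 (chr1:90843972-90844171).
Col6a1: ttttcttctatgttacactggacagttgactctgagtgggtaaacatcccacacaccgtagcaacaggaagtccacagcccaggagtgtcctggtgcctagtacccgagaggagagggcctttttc
Col6a2: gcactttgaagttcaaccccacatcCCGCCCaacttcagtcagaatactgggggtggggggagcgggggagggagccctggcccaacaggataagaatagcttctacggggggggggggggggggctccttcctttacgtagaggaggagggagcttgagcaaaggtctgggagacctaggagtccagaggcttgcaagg
Col6a3: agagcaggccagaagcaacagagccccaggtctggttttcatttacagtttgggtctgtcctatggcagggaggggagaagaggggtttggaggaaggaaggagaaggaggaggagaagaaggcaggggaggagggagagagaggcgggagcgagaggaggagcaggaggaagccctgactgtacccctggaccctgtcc
The TATA box letters TATAAA occurred in none of these 6 windows on either strand, a GC box in those of Col4a6 and Col6a2, and a CCAAT box in that of Col4a5. The next counts use the RefSeq start nearest the annotated 5′ end, which lay inside the annotated gene for some, among them Col27a1 and Col1a2. Over 250 bases before that start, RefSeq promoters were given for 25 of the 33 genes. Of these 16 held a GC box, 10 a CCAAT box and 3 TATAAA, against 32.7%, 33.8% and 12.4% of all 32851 promoters in the reference. The GC box was present in 5 of the 8 genes above the median level of all genes and in 11 of the 17 below it. The median number of CpG dinucleotides was 11 in the genes above the median level and 8 in those below it. Their number did not order every chain, with 31 before Col4a1, the most abundant, and 28 before Col5a1, one of the rare ones. Whether it goes with the level was not tested. These matches describe letters and not binding.

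The collagen transcripts of MLE12 cells were mostly those of type IV. The 6 basement membrane chains made up 85.0% of the summed length-scaled level of all chains with a mean of at least 2, type VI 9.91%, FACIT 2.63% and fibrillar chains 0.829%. Col4a1 and Col4a2 alone, the chains of the ubiquitous type IV network, accounted for 60.9%. The 7 most abundant chains, namely 5 of type IV and 2 of type VI, made up 94.5%, and the other 26 made up 5.52%. Together the collagens took 0.122% of the length-scaled level of all genes. Levels spanned a wide range. The highest chain, Col4a1, was 20380-fold above the lowest one listed, Col27a1, with a 95% counting interval of 9363 to 55534. Col27a1 had 6 reads in all, and Col5a3 had the same mean. The interval does not allow for these chains being chosen as the extremes. Of the 33 chains, 22 had a mean of at least 20 (66.7%, against 69.0% of all genes with a value), and 9 stood above the median length-scaled level of all genes, which was 11.1 ppm. This number was 7 with coding length, 10 with the union of exons and 13 without a length. The median chain had 1.23 ppm. At the other end, 10 chains lay below the 10th percentile of all genes. The classes differed by description only, as each gene has 1 pooled value and no test between classes was run.

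**Figure D1:**
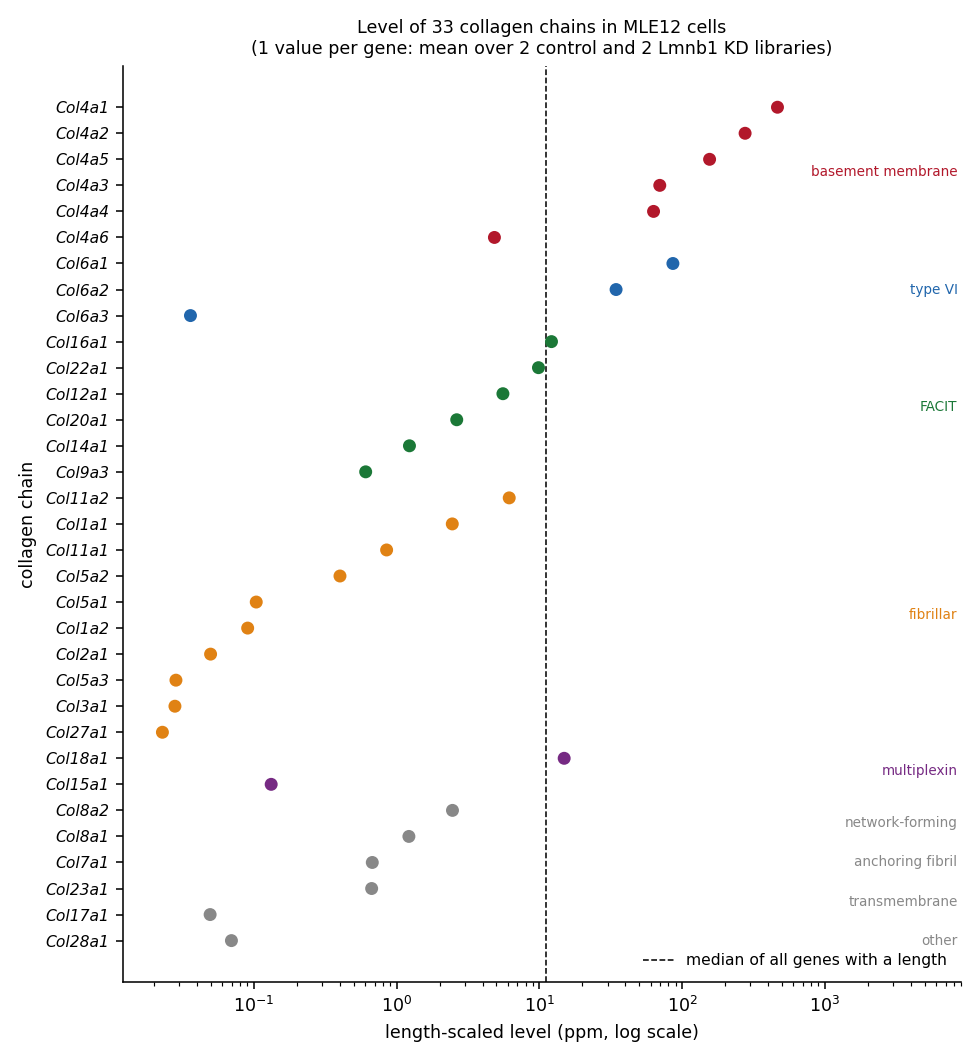
Length-scaled level (x axis, ppm, log scale) of each of the 33 collagen chains (y axis), grouped by class, with 1 point per gene for the mean over all 4 libraries. The dashed line is the median of all genes (11.1 ppm). Col4a1 leads at 465 ppm, and all 10 fibrillar chains lie left of the line.

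Among the basement membrane chains, Col4a1 had a mean of 27639 normalized reads and a length-scaled level of 465 ppm, at percentile 98.2 of all genes. Its total over the 4 libraries lay between 103244 and 118779 reads. Col4a2, its partner in the α1α1α2 molecule, had a mean of 15985 and 276 ppm. The ratio of Col4a1 to Col4a2 was 1.69 (95% counting interval 1.67 to 1.70, exact binomial, counting error only). It lay between 1.53 and 1.77 when coding length, the union of exons or no length was used. The α3, α4 and α5 chains, which assemble into a molecule found in alveolar and kidney basement membranes, were present as well. Col4a5 had a mean of 9134 (156 ppm), Col4a3 of 5352 (69.7 ppm) and Col4a4 of 5720 (63.0 ppm). The percentiles of these chains were 92.6, 81.9 and 80.1. The ratio of Col4a5 to Col4a3 was 2.23, with values of 1.68 to 2.53 for the other lengths. Col4a3 and Col4a4 could not be ordered, because their ratio of 1.11 fell to 0.943 with coding length, 0.996 with the union of exons and 0.936 without a length. Exons of Col4a3 overlap 563 bases of the antisense gene C430014B12Rik, whose mean was 25.0, and no source read for this work says whether reads were counted by strand. Col4a6, which pairs with α5, was the exception of the class, with a mean of 289 and 4.84 ppm. Thus Col4a5 was 32.2-fold above its head-to-head neighbour (95% counting interval 30.3 to 34.2). The neighbours of the other pairs lay within 1.69-fold with the main length and within 1.77-fold with the alternatives.

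The type VI chains fell into a high pair and a near-absent partner. In the usual type VI molecule one α1, one α2 and one α3 chain assemble. Col6a1 had a mean of 3171 (86.1 ppm, percentile 85.2) and Col6a2 of 1439 (34.4 ppm, percentile 68.6). Their ratio was 2.50 with the main length but 4.19 with the union of exons. Without the highest chain of each class the share of type VI was 5.32%. For Col6a3, which encodes the longest chain of the molecule, 13 reads were recovered in all. They fell as 4, 2, 4 and 3 reads on libraries A to D, names given here in order of size factor and not tied to a group. Such reads per library are inferred from the digits of the mean, by a procedure that found the steps in 22 of 40 simulated tables and gave a single solution for 100% of the low means here. Col6a3 was thus low in every library, with a length-scaled level of 0.0359 ppm (percentile 0.763). Col6a1 was 2399-fold above it (95% counting interval 1402 to 4507) and Col6a2 959-fold (560 to 1803). Without a length correction these ratios were 973 and 442. Other type VI chains were not among the genes listed, so they have no level here.

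**Figure D2:**
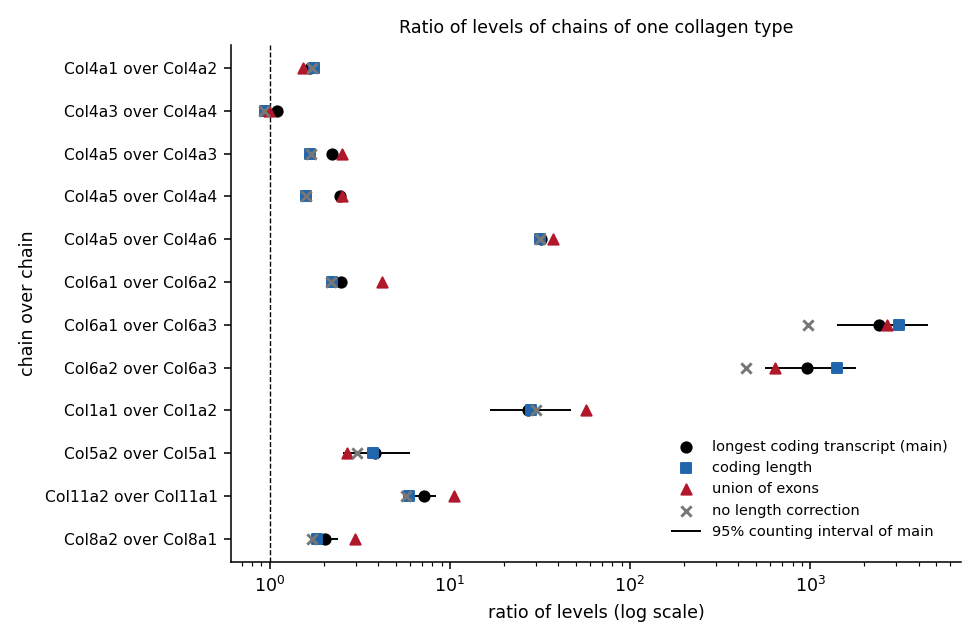
Ratio of the levels of chains of one collagen type (x axis, log scale, 1 row per pair), computed with 4 definitions of length; the line is the 95% counting interval of the main value and the dashed line marks equal levels. The ratios to Col6a3 lie far to the right, and those of Col4a3 to Col4a4 lie on both sides of equality.

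The FACIT chains had a median of 4.09 ppm, between those of the type VI (34.4) and fibrillar chains (0.0970), but ranged from 0.606 to 12.1 ppm. Col16a1, found near basement membranes and fibrils, had a mean of 568 and 12.1 ppm, and Col22a1, a chain of tissue junctions, a mean of 779 and 9.85 ppm. These chains could not be ordered, because the ratio of Col16a1 to Col22a1 was 1.23 with the main length but 0.744 with coding length, 0.994 with the union of exons and 0.729 without a length. Col12a1, which binds the surface of type I fibrils, had a mean of 573 and 5.55 ppm. Of this class only Col16a1 stood above the median gene with the main length. With the union of exons or no length Col22a1 did so too, and with coding length neither did. For the lower FACIT chains the reads of each library could be recovered. Col20a1 had 81, 130, 138 and 122 reads in libraries A to D, a mean of 119 and 2.63 ppm, and library A was the low one. Col14a1, a relative of Col12a1, had 60, 39, 81 and 100 reads and 1.23 ppm, with library B lowest and D highest. Col9a3, a chain of cartilage type IX collagen, had 12, 20, 10 and 24 reads and 0.606 ppm. The libraries of this chain spread 2.45-fold after division by size factor. Its partner chains were not among the genes listed, so no level can be given for them. Exons of Col9a3 share 234 bases with the antisense gene Tcfl5, and Col20a1 overlaps BX649560.1 on its strand over 79 bases. The mean of BX649560.1 was 89.8, close to the 119 of Col20a1, and its part in the Col20a1 level was not tested.

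Fibrillar chains were mostly low, but the classes overlapped. Col11a2 lay above the FACIT chain Col12a1 (5.55 ppm) and the basement membrane chain Col4a6 (4.84), though below Col16a1 and Col22a1. None of the 10 fibrillar chains stood above the median gene with any of the 3 lengths, although without a length Col11a2 did. The highest, Col11a2, was 75.8-fold below Col4a1. Col11a2, a cartilage chain that copolymerizes with types II and V, had a mean of 334 and 6.14 ppm. Col11a1 had 74, 31, 62 and 66 reads in libraries A to D and 0.850 ppm, so Col11a2 was 7.23-fold above it (95% counting interval 6.28 to 8.35). Library B was low for Col11a1. The chains of type I collagen, the most common collagen of connective tissue, were far apart. Col1a1 (chr11:94936224-94953042) had 143, 76, 154 and 145 reads, a mean of 131 and 2.45 ppm, whereas Col1a2 (chr6:4504814-4541544) had 4, 1, 8 and 4 reads and 0.0903 ppm. Within single libraries the ratio of Col1a1 to Col1a2 ranged from 17.4 to 68.5, and on the mean it was 27.1 (95% counting interval 16.8 to 46.9). Col1a1 exceeded Col1a2 in each of the 4 libraries. The main type I molecule contains both chains. With the union of exons as length the ratio was 57.0.

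Type V chains, which start fibrils and set their diameter, were also low. Col5a2 had 32, 40, 12 and 14 reads in libraries A to D and 0.400 ppm, with A and B above C and D. Col5a1 had 4, 9, 10 and 8 reads and 0.104 ppm. The ratio of Col5a2 to Col5a1 was 3.86 on the mean, and ranged from 1.52 in library C to 10.2 in library A. Annotated antisense genes overlap up to 113 bases of Col5a1. Col5a2 lies 24.6 kb from Col3a1 in the genome. Col3a1, the chain of the homotrimeric type III collagen, had 6 reads in library A and 0 in the other libraries. A count of 0 allows up to 3 reads in a library. Col5a3 and Col27a1 had 6 reads each, which fell as 1, 0, 2 and 3 for both. Col2a1, the chain of cartilage fibrils, had 9 reads, with 0, 4, 2 and 3 by library. At this depth an exact 95% Poisson interval for 6 reads runs from 2.20 to 13.1, so the order of these rare chains could not be told.

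**Figure D3:**
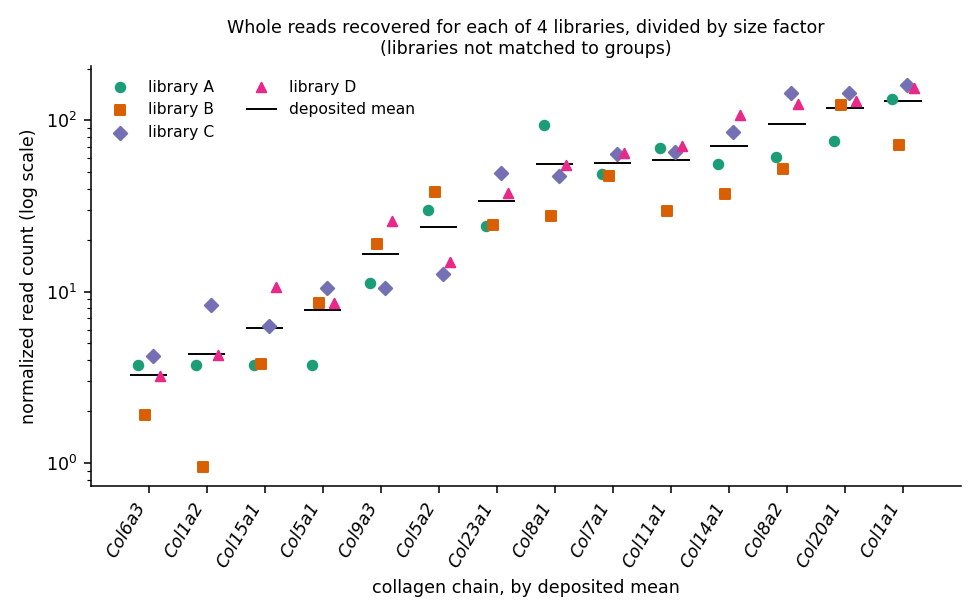
Normalized read count (y axis, log scale) of each of the 4 libraries for the 14 collagen chains with a mean of at least 3 whose reads were recovered (x axis, by mean); symbols stand for libraries A to D, which are not matched to groups, and bars for the deposited mean. Col7a1 shows the closest libraries, between 47.4 and 64.2, and Col1a2 the widest, between 0.948 and 8.40.

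Of the remaining classes, only Col18a1 stood above the median gene with the main length, and it fell below it with coding length. Col18a1, a proteoglycan of basement membranes whose end is released as endostatin, had a mean of 749 and 14.9 ppm. Col15a1, its relative, had 4, 4, 6 and 10 reads in libraries A to D and 0.132 ppm. Col8a1 and Col8a2 form the hexagonal network of type VIII collagen. Col8a1 had 101, 29, 45 and 51 reads (1.22 ppm), and library A stood apart at 94.0 normalized reads. Col8a2 had 66, 55, 138 and 116 reads (2.46 ppm), with C and D above A and B. Hence Col8a2 exceeded Col8a1 2.02-fold on the mean, but in library A the ratio was 0.771, and in the other libraries it lay between 2.24 and 3.62. Without library A the ratio on the mean was 2.93. Col7a1, the chain of the anchoring fibrils that tie the epidermis to its stroma, had 52, 50, 61 and 60 reads and 0.674 ppm. Col23a1, a transmembrane chain, had 26, 26, 47 and 35 reads and 0.668 ppm. Col17a1, the hemidesmosome chain, had 10 reads in all and Col28a1 had 11, of which 0 fell in library D. Whether the spread between libraries follows the silencing of lamin B1 or the replicate cannot be told apart, because the libraries are not matched to groups.

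The classes are partly defined by the shape of the helix, so a difference between them in this shape was given in advance. Gly-X-Y triplets were counted in the translated GENCODE coding sequence, in runs of at least 5. Over the 6 type IV chains 425 to 444 triplets filled 74.9% to 78.8% of the chain, broken 21 to 26 times, with a longest unbroken run of 39 to 66 triplets. The fibrillar chains had 329 to 364 triplets, with a longest run of 217 to 344, and Col27a1 was the one with the short run. Runs were counted over the whole translated chain, so a separate short run also counts as a break. By that count the fibrillar chains broke 1 or 2 times, but in Col1a1 338 of 355 triplets lay in 1 unbroken run. In type VI the helix held 109 to 110 triplets, which is 31.9% of Col6a1 and of Col6a2 but 10.0% of Col6a3. FACIT chains varied most, from 50 triplets in Col20a1 to 340 in Col22a1. The 7 most abundant chains had a longest run of at most 87 triplets, but short runs were not particular to them. All 23 chains outside the fibrillar class had at most 113, among them rare ones such as Col28a1 (28 triplets), Col15a1 (30) and Col6a3 (45). Aligned over their whole length, Col4a1 shared 63.0% of residues with Col4a5 and 50.9% with Col4a2, so the abundant partners Col4a1 and Col4a2 were not the closest pair in sequence. Col6a3 shared 37.2% with Col6a1 over the aligned part. At 95% identity over at least 100 bases, 4 of the 33 transcripts matched those of another gene, over at most 7.68% of their length. These were Col3a1, Col4a3, Col5a1 and Col9a3, and every gene matched overlaps exons of that chain in the genome. No type IV or VI transcript matched that of another chain at this identity.

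**Figure D4:**
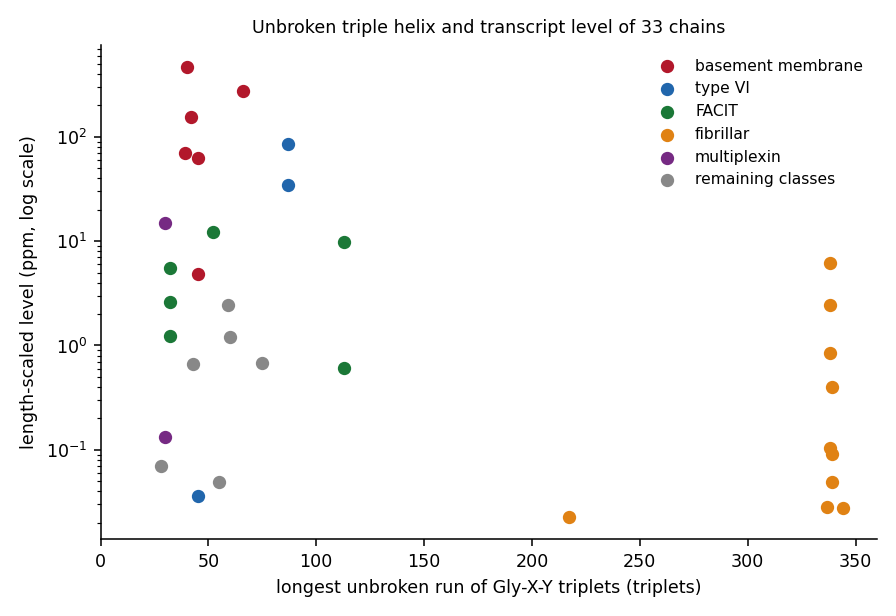
Longest unbroken run of Gly-X-Y triplets (x axis) against the length-scaled level (y axis, ppm, log scale) of the 33 chains, coloured by class. Type IV and type VI chains sit at runs of at most 87 triplets, and fibrillar chains at 217 or more with levels of at most 6.14 ppm.

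Most of the listed genes that modify and export procollagen stood above the median gene. Genes were looked up by symbol, and those not listed have no level here. Of 13 genes of prolyl and lysyl hydroxylation, 9 were listed and all 9 stood above the median gene. P4hb, the β subunit of prolyl 4-hydroxylase and a protein disulfide isomerase, had 1403 ppm, Ppib, a prolyl isomerase, 299, Crtap, a partner of prolyl 3-hydroxylase, 82.6, and Plod1, a lysyl hydroxylase, 78.8. The α subunits P4ha1, P4ha2 and P4ha3, which carry the catalytic site, had 74.2, 41.3 and 16.8 ppm. Colgalt1, which glycosylates hydroxylysine, stood at 179 ppm. Of 11 genes of collagen folding and export, 9 stood above the median gene, 1 (Tram2, 9.11 ppm) below it, and Mia2 had no length. Fkbp10 (405 ppm) and Serpinh1 (380), both collagen chaperones of the endoplasmic reticulum, led the list, followed by the vesicle coat genes Sec13 (301) and Sec31a (214). The genes outside the cell were more uneven. Bmp1, which cleaves the carboxyl end of fibrillar procollagens, and its enhancer Pcolce had 417 and 406 ppm, while Adamts2 and Adamts14, which cleave the amino end, had 0.0187 and 0.0251. Furin, a proprotein convertase, had 21.9 ppm and Pcolce2, a relative of Pcolce, 3.10. Adamts3, a relative of Adamts2 and Adamts14, had 1.50 ppm.

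Of 7 crosslinking genes, 6 were listed and 5 stood above the median gene. Tgm2, a transglutaminase, had 61.9 ppm and Pxdn, the peroxidasin that links type IV collagen through sulfilimine bonds, 47.4. Loxl3 had 45.3, Loxl4 16.5 and Loxl2 13.9 ppm, and Lox itself, the lysyl oxidase of fibrillar collagens, 0.174. Of 10 collagen receptor genes, 8 were listed. Among these Itgb1, integrin β1, had 818 ppm, and Mrc2, which takes up collagen, 97.3. The discoidin receptors Ddr1 and Ddr2 had 48.4 and 44.7 ppm. The α subunits that pair with β1 to bind collagen were all below the median gene, with 1.99 for Itga1, 0.419 for Itga10, 0.401 for Itga2 and 0.271 for Itga11.

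**Figure D5:**
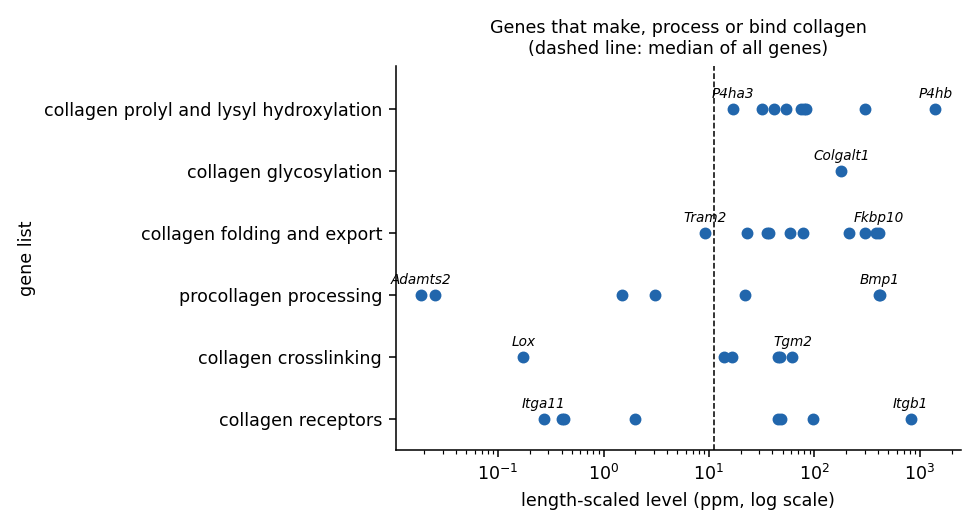
Length-scaled level (x axis, ppm, log scale) of the genes in 6 lists of collagen modification, export, processing, crosslinking and binding (y axis), 1 point per gene, with the lowest and highest gene of each list named and the median of all genes dashed. Hydroxylation genes all lie right of the line, and Lox, Adamts2 and the α integrins lie left of it.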

How the data were processed

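Poly(A) RNA of 2 control and 2 Lmnb1 KD MLE12 samples was sequenced by Ion Torrent. The authors used Reaper for trimming, STAR for mapping (mm10) and DESeq2 for normalization. No source read here states the strand setting of the counting. The deposited signal used here is the mean of normalized counts over the 4 libraries, present for 17906 of 18018 genes. The 3 columns of the authors' comparison (log2 fold change, p-value and adjusted p) were not used. The test between groups foreseen for values per library was not run, since the table has none, and no test was made. Depth per library was recovered only as size factors.

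Lengths, positions and coding sequences came from GENCODE M21 (GRCm38), which matched 17683 genes with a value. The 223 others, with 0.264% of the summed level, were left out of the length-scaled level. Whole reads were recovered as the only 4 whole numbers whose sum, weighted by the library steps, gave the mean within 2e-10 plus a relative part for larger means. All 3989 distinct means up to 20 had 1 solution. Among the 33 members recovery was tried only for means up to 140. All 20 of these had 1 solution, and the 13 members with higher means were not tried. The recovery was tested on simulated data, and the first simulation failed. The search for steps was then rewritten and the simulation changed, so that both were adjusted after seeing failures. Over 2 ranges of size factors, rounded or not, and an even or uneven spread of rare genes, the steps were found in 22 of 40 runs, in 10 of 20 for the narrower and 12 of 20 for the wider range. They were found in 19 of 20 runs where rare genes varied more between libraries and in 3 of 20 where all genes varied evenly. In the runs that found them, 0 of 2707 single solutions were wrong. In the runs that did not, 645 of 683 were wrong, and at most 75%, 80% and 66.7% of the means up to 20, from 20 to 60 and from 60 to 140 had a single solution. In the deposited table these shares were 100%, 100% and 99.3%. Read counts per library rest on this comparison. The lowest mean in the table corresponds to 5 reads in all. Intervals cover counting error only. The naming rule was every chain with a mean of at least 20, lower chains that pair with these, and the 4 highest genes of each list. The other low chains, list genes and markers were named after their values were seen. Proteins are not printed, and a planned search for receptor motifs was not run. Members, classes and lists were chosen with earlier results of these data known. Alternatives were other lengths, filters, pseudocounts and class memberships. Python 3.11.15, numpy 2.4.6, pandas 2.3.3, scipy 1.17.1, Biopython 1.88 and BLAST 2.17.0 were used.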

Additional observations from a re-analysis of the deposited data

How the results depend on the processing

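The order of the classes (basement membrane, type VI, FACIT, fibrillar) was the same under each alternative for the share of the summed level. With the union of exons the shares of these classes were 86.3%, 9.01%, 2.45% and 0.773%, and without length 88.5%, 6.37%, 2.94% and 0.774%. Coding length, taken from GENCODE in place of the RefSeq proteins foreseen and so chosen after seeing the data, gave 10.0% for type VI and 0.757% for fibrillar chains. With a mean of at least 100, basement membrane chains had 85.6%, FACIT 2.50% and fibrillar chains 0.711%. Counting types XV and XVIII as basement membrane gave 86.2%. Without the highest chain of each class the shares were 87.9%, 5.32%, 3.07% and 0.609%, so the type VI share rests on Col6a1. All other alternatives for these shares moved them by less than the counting interval. The ratio of Col4a3 to Col4a4 turned to 0.943, 0.996 and 0.936 with coding length, union of exons and no length. The other ratios within a collagen type kept their direction. Those beyond the counting interval with coding length were Col4a1 to Col4a2 (1.77), Col4a5 to Col4a3 (1.68) and to Col4a4 (1.59), Col6a1 to Col6a2 (2.22) and Col11a2 to Col11a1 (5.93). With the union of exons they were, in the same order, 1.53, 2.53, 2.52, 4.19 and 10.6, besides Col4a5 to Col4a6 (37.5), Col1a1 to Col1a2 (57.0) and Col8a2 to Col8a1 (2.99). Without length they were 1.73, 1.71, 1.60, 2.20 and 5.70, besides Col6a1 and Col6a2 to Col6a3 (973 and 442). In all, 20 of these values moved, 3 reversed and 13 stayed. The pseudocount moved 5 of 8 median log2 levels. The order of Col16a1 over Col22a1 turned to 0.744, 0.994 and 0.729 with coding length, union of exons and no length. Leaving out each recovered library in turn, an alternative chosen after seeing the data and open only to pairs with recovered reads, gave 24.7 to 36.3 for Col1a1 to Col1a2, 3.01 to 5.04 for Col5a2 to Col5a1 and 1.59 to 2.93 for Col8a2 to Col8a1. No labelled replicate could be left out for the class shares, as most of their reads were not recovered. No paired analysis was possible because no library is matched to a label. For chains under 20 reads in all, depth limits any order between them.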

Other observations

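The spread of the 4 unlabelled libraries, as the highest over the lowest normalized count, was set beside that of other genes whose reads were recovered. Its median was 2.72 for 300 genes with a mean between 5 and 20, 1.82 for 300 genes between 20 and 60, and 1.52 for 298 genes between 60 and 140. Above the upper quartile of 2.37 for the middle range were Col8a1 (3.42), Col5a2 (3.01) and Col11a1 (2.40). In the highest range, with an upper quartile of 1.83, lay Col14a1 (2.90), Col8a2 (2.78), Col1a1 (2.24) and Col20a1 (1.92). Of the members with a mean between 20 and 140, Col7a1 (1.36) and Col23a1 (2.04) were the others. In the lowest range Col15a1 (2.88), Col5a1 (2.82) and Col9a3 (2.45) lay near the median of 2.72, below the upper quartile of 4.01. Libraries A and B were the low ones for Col8a2 and the high ones for Col5a2, while B alone was lowest for Col1a1, Col11a1 and Col8a1. These chains were singled out after their values were seen, and which library belongs to which group is not known here.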
